A study of Daphnia magna with 12 samples.

Results

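The genes described here are the 126 gene models, of 21456 listed in the deposited count table, whose read level was lower in 4 libraries of old Daphnia magna than in the other 8 libraries of the study. The 4 low libraries are old reproducing replicate 4 and old non-reproducing replicates 2, 3 and 4. The other 8 are the 4 young libraries, old reproducing replicates 1, 2 and 3, and old non-reproducing replicate 1. Members were selected on their counts per 1000000 counts of the library (CPM). A gene had to average at least 1 CPM over the 12 libraries, and its highest level among the 4 had to lie below its lowest level among the 8. Of 9357 genes at that average level, 170 had this order. Left out were 2 genes with all 4 young libraries above all 8 old ones, and 42 genes whose 4 highest libraries were young replicates 2 and 4 with old reproducing replicates 1 and 3. The members were thus 1.35% of the genes at that level. Because these levels chose the members, the gap between the 2 sets of libraries is a description and not a test result.

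All animals were females of the clone GB-EL75-69 of Daphnia magna, housed singly, fed a green alga and given no treatment beyond age. Young females were 20 days old and reproducing. Old females were 130 to 170 days old, either reproducing or past reproduction, and each of the 3 groups had 4 RNA sequencing libraries from what the labels call somatic whole body. No young group without reproduction was included, a single clone was used, and the number of animals per library is not stated, so p-values below measure the spread between these libraries. The working description of the 4 low libraries as an advanced state has no counterpart in the labels, which name no stage shared by these 4 libraries and no others. They are therefore called the 4 low libraries. The title of the study ties a late return of reproduction to a reversal of transcriptional changes that come with age, which is the question behind the 3 groups.

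Daphnia females reproduce clonally in repeated cycles in which yolk is made in fat cells, a clutch is laid into the brood chamber and the cuticle is shed at a moult. RNA of a whole body is a sum over tissues such as fat cells, gut, muscle, epidermis and blood cells, and such cycles are known to change it. In such bulk RNA, fewer cells of a type and less RNA per cell cannot be told apart. The files give each gene as an annotation ID without a name, and 0 IDs matched the reference gene table, so no function, sequence or cell type marker could be attached to a member. The IDs of a pair of members are printed, and others are described by rank and contig.

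Total counts were 16015869 to 22822950 in the 4 low libraries and 16921813 to 25659597 in the other 8, so the depths overlapped. Within a library, the top 10 genes by count took 11.4 to 18.9% of the counts in the 4 and 12.9 to 23.4% in the 8. In the labels the 4 low libraries carry the numbers 26, 27, 28 and 30, while number 29 is old non-reproducing replicate 1 and the young libraries are 19 to 22. Each group's libraries were numbered in 1 run (19 to 22, 23 to 26 and 27 to 30), so numbering and group cannot be told apart. The part of this numbering, or of what it may stand for, in the results was not tested.

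Together the members held 2.66, 1.80, 1.48 and 1.12% of all counts in young replicates 1 to 4. They held 1.47, 2.54, 1.91 and 0.567% in old reproducing replicates 1 to 4, and 2.81, 0.343, 0.338 and 0.391% in old non-reproducing replicates 1 to 4. The highest share of all 12 libraries was therefore found in old non-reproducing replicate 1, a library from the group to which 3 of the 4 low libraries belong. Averaged by group, the share was 1.77 ± 0.657% over the young libraries, 1.62 ± 0.83% over the old reproducing and 0.971 ± 1.23% over the old non-reproducing ones (SD, n = 4 per group), and the ranges overlapped. The 7 most abundant members made up 57.5% of the summed mean level of the 126. Without the 5 most abundant the members still held 0.669 to 1.56% of the counts in the 8 libraries and 0.237 to 0.369% in the 4.

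**Figure D1:**
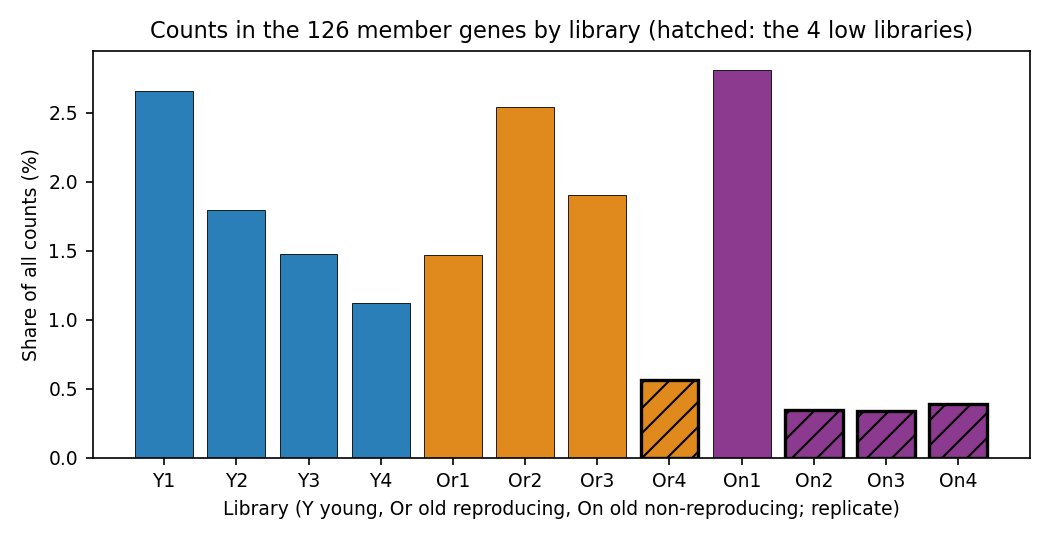
Share of all counts of a library, in percent, that fell in the 126 member genes, with 1 bar per library (Y young, Or old reproducing, On old non-reproducing, followed by the replicate) and the 4 low libraries hatched. The hatched bars lie between 0.338 and 0.567% and the others between 1.12 and 2.81%, with old non-reproducing replicate 1 highest.

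Most members were separated by a small gap at the edge of the 2 sets but by a larger one between their centres. With counts under 3 in a low library raised to 3, the lowest of the 8 libraries was 1.0002 to 12.9 times the highest of the 4, with a median of 1.24, and reached at least 2 times in 19 members. On the same floor, the median level of the 8 was 1.16 to 51.6 times the median of the 4. Its median over members was 3.32. This ratio was at least 2 in 97 members, at least 4 in 58 and at least 10 in 23. In 5 members all 4 low libraries held 3 counts or fewer, so their ratios are lower bounds. Such floors cover counting error only.

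Members at the edge of the rule differed little from genes just outside it. The 2 members with the smallest gap had 76.17 CPM in the highest low library against 76.19 in the lowest of the other 8, and 223.7 against 223.8 CPM. Just outside stood 2 genes that both had 0.7887 CPM in the highest low library against 0.7885 CPM in the lowest of the others. Of the average level, the nearest values inside were 1.008 and 1.0098 CPM and the nearest outside 0.957 and 0.9988 CPM.

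**Figure D2:**
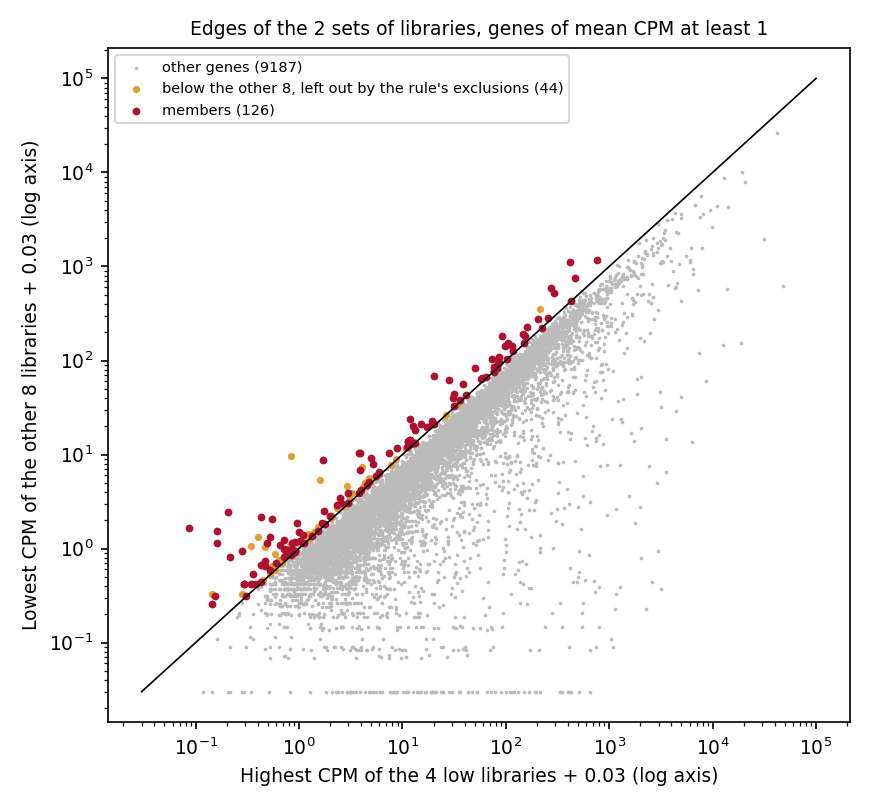
Highest CPM among the 4 low libraries (x axis) and lowest CPM among the other 8 (y axis), both with 0.03 added and on log axes, for the 9357 genes of at least 1 CPM on average; the line marks equal values. Members (126) and the 44 genes that the exclusions removed lie above the line, most of them close to it.

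The most abundant member was maker-000031F-augustus-gene-4.17, a gene model of 1339 nucleotides on contig 000031F. Its level was 2311, 2965, 2553 and 1105 CPM in young replicates 1 to 4. In old reproducing replicates 1 to 4 it was 2389.8, 4730.3, 3997 and 415 CPM, and in old non-reproducing replicates 1 to 4 it was 5839, 7.70, 6.22 and 252 CPM. Old non-reproducing replicates 2 and 3 had the lowest levels, at which the gene was still detected, while replicate 1 of the same group had the highest level of all libraries. Old reproducing replicate 4 and old non-reproducing replicate 4 lay between these extremes. Per length it was also the highest member, with a 12-library mean of 1654 RPKM (reads per kilobase of gene model per 1000000 counts), followed by members on contigs 000035F and 000005F with 367 and 349.9 RPKM. By edgeR with Benjamini-Hochberg adjustment, the log2 change from young to old non-reproducing females was -0.70 (SE 1.56, adjusted p = 0.814). Without old non-reproducing replicate 1 it was -4.71 (adjusted p = 0.0615 by edgeR), still above the threshold of 0.05. From young to old reproducing females it was 0.23 (SE 1.55, adjusted p = 0.965 by edgeR).

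Among members of at least 10 CPM, maker-000031F-augustus-gene-2.73 had the largest gap between the sets. This gene model of 1237 nucleotides lies on the same contig. Its level was 8.81, 118, 9.01 and 16.1 CPM in young replicates 1 to 4. It was 17.9, 18.7, 36.04 and 1.44 CPM in old reproducing replicates 1 to 4, and 10.2, 1.25, 0.325 and 1.66 CPM in old non-reproducing replicates 1 to 4. All 4 low libraries stayed under 2 CPM and all others were above 8 CPM, so that its lowest level among the 8 was 5.29 times the highest among the 4. Young replicate 2 stood far above the rest. The log2 change from young to old non-reproducing females was -3.54 (SE 1.25), which did not pass the threshold (adjusted p = 0.0835 by edgeR). With 1 library left out in turn, the edgeR value ran from -5.11 without old non-reproducing replicate 1 (adjusted p = 0.0369) to -1.84 without young replicate 2 (adjusted p = 0.349). DESeq2 gave -3.56 (adjusted p = 0.00784). Without young replicate 2 the change of old reproducing against young went from -1.12 to 0.58.

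The next gap by size among members of at least 10 CPM belonged to a model of 740 nucleotides on contig 000004F, with 3.41 times between the sets. Young replicates 1 to 4 had 273, 269.5, 280.3 and 68.1 CPM of it. Old reproducing replicates 1 to 4 had 208, 266, 314 and 19.1 CPM, and old non-reproducing replicates 1 to 4 had 432, 3.25, 0.418 and 20.0 CPM. Young replicate 4 was thus the lowest of the 8, well below the other young libraries.

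Next came 2 models with neighbouring IDs on contig 000026F with nearly the same counts, of which the first had 66.0, 51.0, 29.1 and 10.4 CPM in young, 35.1, 74.4, 45.5 and 3.06 CPM in old reproducing and 99.3, 1.03, 0 and 3.77 CPM in old non-reproducing replicates 1 to 4. A further model of that contig had 166, 188, 146 and 24.1 CPM in young, 147, 199, 211 and 6.68 CPM in old reproducing and 298, 0.171, 0.186 and 11.9 CPM in old non-reproducing replicates 1 to 4. In both, young replicate 4 was the lowest of the 8, and old non-reproducing replicates 2 and 3 were at or near 0. The median of the 8 in the latter model was 51.6 times that of the 4, the largest such ratio among the members.

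The remaining genes of this order were less extreme in the low libraries. A model on contig 000002F had 108, 91.0, 73.6 and 63.8 CPM in young, 62.3, 109, 80.4 and 22.6 CPM in old reproducing and 86.3, 27.9, 18.5 and 19.02 CPM in old non-reproducing replicates 1 to 4. A model on contig 000022F had 617, 231, 294 and 181 CPM in young, 294, 376, 263 and 72.6 CPM in old reproducing and 250.1, 91.6, 11.6 and 41.7 CPM in old non-reproducing replicates 1 to 4. Young and old reproducing replicates 1 to 3 overlapped in both genes, and young replicate 1 stood above all others in the second.

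The other 6 of the 7 most abundant members averaged over 848 CPM, and old non-reproducing replicate 1 was among their high libraries, except in the member that ranked after the most abundant. That member, a model of 5762 nucleotides on contig 000001F, had 2490.3, 2459.8, 2195 and 2039 CPM in young, 1163, 2567, 1479 and 683 CPM in old reproducing and 1232, 610.04, 753 and 231 CPM in old non-reproducing replicates 1 to 4. All 4 young libraries were above all old non-reproducing ones, and old reproducing libraries ranged from the low set to above the young. It was the one member among the 7 most abundant that passed the test between old non-reproducing and young females (log2 change -1.74, adjusted p = 0.0449 by edgeR).

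A model of 2568 nucleotides on contig 000005F had 2574, 832, 532 and 141 CPM in young replicates 1 to 4. It had 823, 1783, 1235 and 114 CPM in old reproducing replicates 1 to 4 and 2621, 16.1, 3.62 and 107 CPM in old non-reproducing replicates 1 to 4. Young replicate 1 and old non-reproducing replicate 1 were the high libraries, and young replicate 4 was close to the low set. The same pair of high libraries was seen in a model on contig 000016F, with 3177, 586, 447 and 285 CPM in young, 585, 1522, 758 and 255 CPM in old reproducing and 2485, 32.6, 5.99 and 114 CPM in old non-reproducing replicates 1 to 4. It was seen again in a model on contig 000035F, with 2842, 1055, 811 and 751 CPM in young, 964, 1766, 1022 and 471 CPM in old reproducing and 2320.4, 67.8, 164 and 258 CPM in old non-reproducing replicates 1 to 4. In these 3 genes the level in young replicate 1 was more than that of any old reproducing library, and the young libraries overlapped all 3 of old reproducing replicates 1 to 3.

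Another pair of abundant members was not highest in young replicate 1. A second model on contig 000001F had 784, 1784, 1283 and 523 CPM in young, 815, 2516, 1486 and 293 CPM in old reproducing and 2213, 113, 82.7 and 194 CPM in old non-reproducing replicates 1 to 4. A model of 11714 nucleotides on contig 000018F had 587, 1156, 971 and 953 CPM in young, 1385, 1426, 1718 and 273 CPM in old reproducing and 1498, 39.8, 40.3 and 132 CPM in old non-reproducing replicates 1 to 4. In the latter, old reproducing replicates 1 to 3 and old non-reproducing replicate 1 were all above the 4 young libraries. In both genes old reproducing replicate 4 had the highest level of the 4 low libraries.

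**Figure D3:**
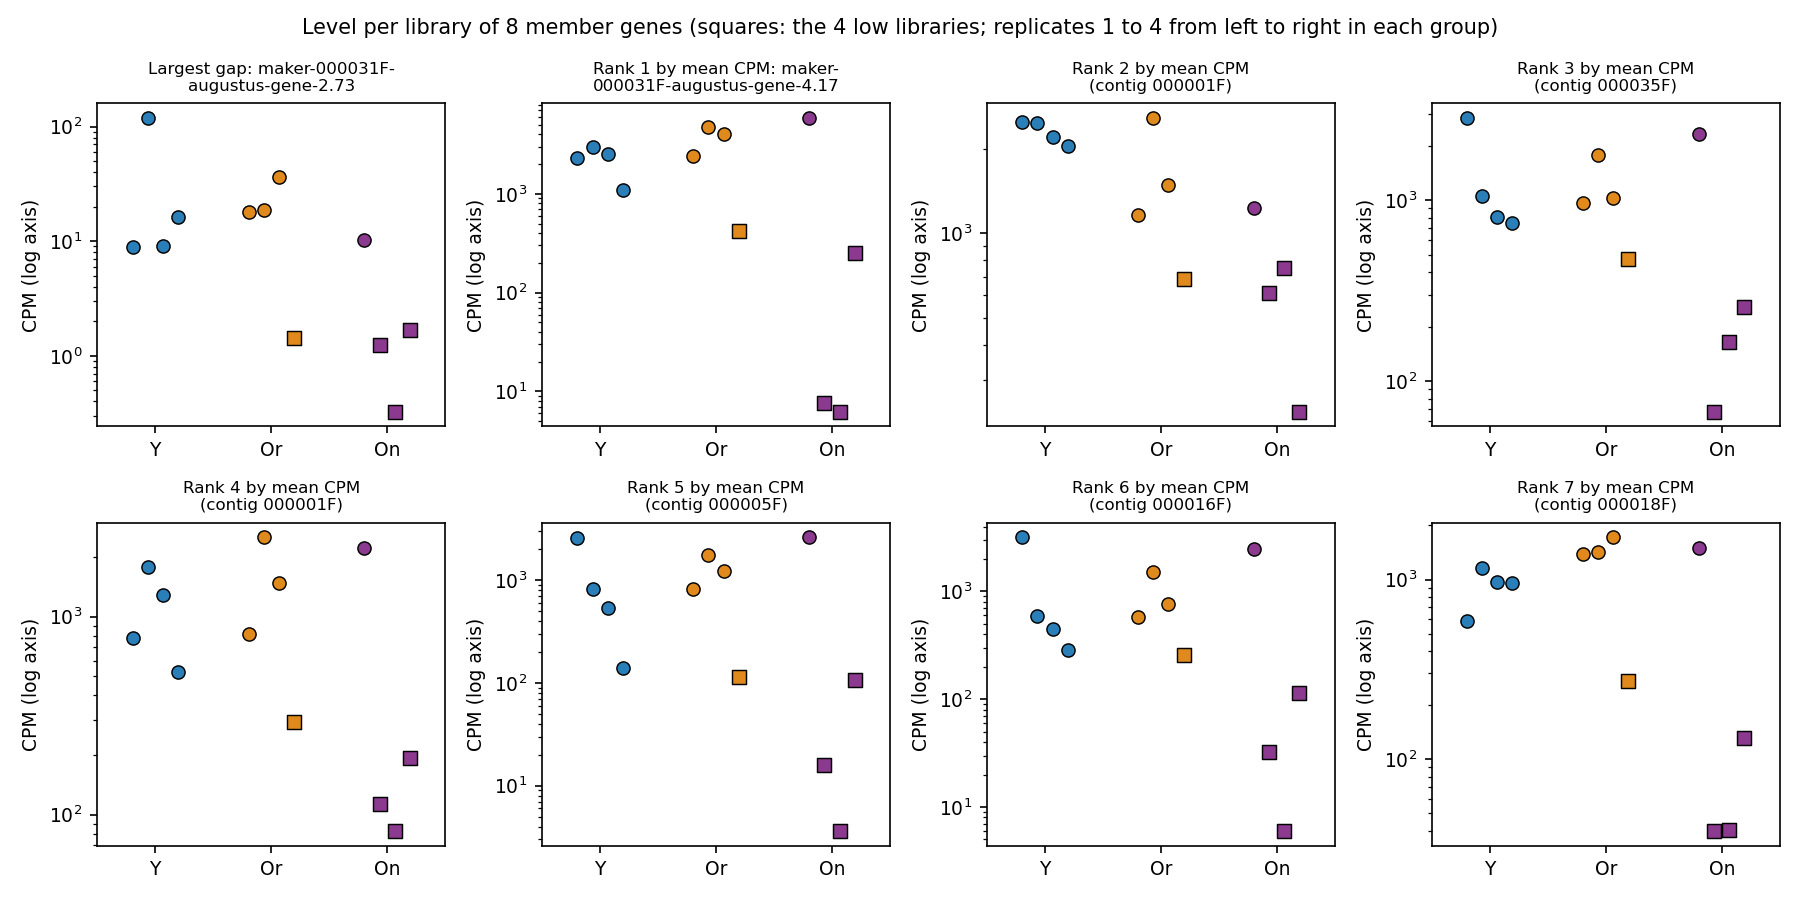
Level in CPM, on log axes, of 8 members in each library, by group (Y young, Or old reproducing, On old non-reproducing) with replicates 1 to 4 from left to right and squares for the 4 low libraries. In all panels old non-reproducing replicate 1 lies with the 8 and old reproducing replicate 4 with the 4 low libraries, as the rule requires. The panel marked as the largest gap shows maker-000031F-augustus-gene-2.73, which has it among members of at least 10 CPM on average. There young replicate 2 reaches 118 CPM while the low libraries stay under 2 CPM.

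The rule fixed which libraries were low but not the order inside the low set. Inside the set of 8 it fixed no order, but its exclusions removed some orders. The first took out 2 genes with all young libraries above all old ones. The second took out 42 genes with young replicates 2 and 4 and old reproducing replicates 1 and 3 above the other libraries. Inside the low set, old non-reproducing replicate 3 was lowest in 53 members, replicate 2 in 37, replicate 4 in 22 and old reproducing replicate 4 in 10, with ties in 4 members. Replicate 3 was lowest in 42.1% of the members and in 49.4% of all genes of at least 1 CPM, and replicate 2 in 29.4 and 16.7%. For replicate 4 these percentages were 17.5 and 19.5%, and for old reproducing replicate 4 they were 7.94 and 14.3%. Old reproducing replicate 4 was the highest of the 4 low libraries in 54 members (42.9%), against 33.9% of all genes of at least 1 CPM. Its members' median level relative to the median of the 8 was -1.39 on the scale of log2(CPM + 0.1), against -1.68, -1.84 and -1.78 in old non-reproducing replicates 2, 3 and 4. The old reproducing library was thus the least low of the 4, with overlap between them gene by gene.

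Inside the set of 8, the members split by which library was highest. Young replicate 2 was highest in 47 members, young replicate 1 in 33 and old non-reproducing replicate 1 in 27, and the other 5 libraries shared 19. The percentages were 37.3, 26.2 and 21.4%, beside 23.8, 7.71 and 18.7% of all genes of at least 1 CPM. The 42 genes left out by the second exclusion were all highest in young replicate 2 or 4 or old reproducing replicate 1 or 3. The members' percentages follow in part from that. Young replicate 2 was highest mostly among scarce members, whose 12-library mean had a median of 2.05 CPM, while the median was 26.8 CPM where young replicate 1 led and 34.9 CPM where old non-reproducing replicate 1 led. None of the 28 members that averaged at least 100 CPM was highest in young replicate 2. In 23 members young replicate 2 had 2.08 to 8.59 times the next library, and 21 of these averaged under 10 CPM. These 23 lay on 14 contigs, 5 of them on contig 000036F.

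Low values within the 8 were mostly in young females too. A young library was lowest of the 8 in 97 members (77.0%), close to the 76.6% of all genes of at least 1 CPM. Young replicate 3 was lowest in 36 members (28.6%, against 13.2% of all genes) and young replicate 4 in 31 (24.6%, against 9.71%). Young replicate 1 was lowest in 13 (10.3%, against 35.1%). The members' percentages follow in part from the rule. In none of the 42 genes left out by the second exclusion was young replicate 2 or 4 the lowest of the 8. That exclusion was not applied to all genes. Among the 28 members of at least 100 CPM, young replicate 4 was lowest in 14.

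The spread within the young group was wide in the members. The SD of log2(CPM + 0.1) over the 4 young libraries had a median of 0.92 in the members and of 0.37 in all genes of at least 1 CPM, and 95 of 126 members exceeded the latter value. Over old reproducing replicates 1 to 3 the medians were 0.32 and 0.23. Across the 8 libraries, the correlation of log2(CPM + 0.1) between 2 members had a median Pearson r of 0.16 over 7875 pairs of genes. The interquartile range was -0.21 to 0.58. All pairs share the library depths and the rule's lower limit and exclusions. Outside the 4 low libraries, this range thus held negative and positive values, and no matching r for all genes is given.

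**Figure D4:**
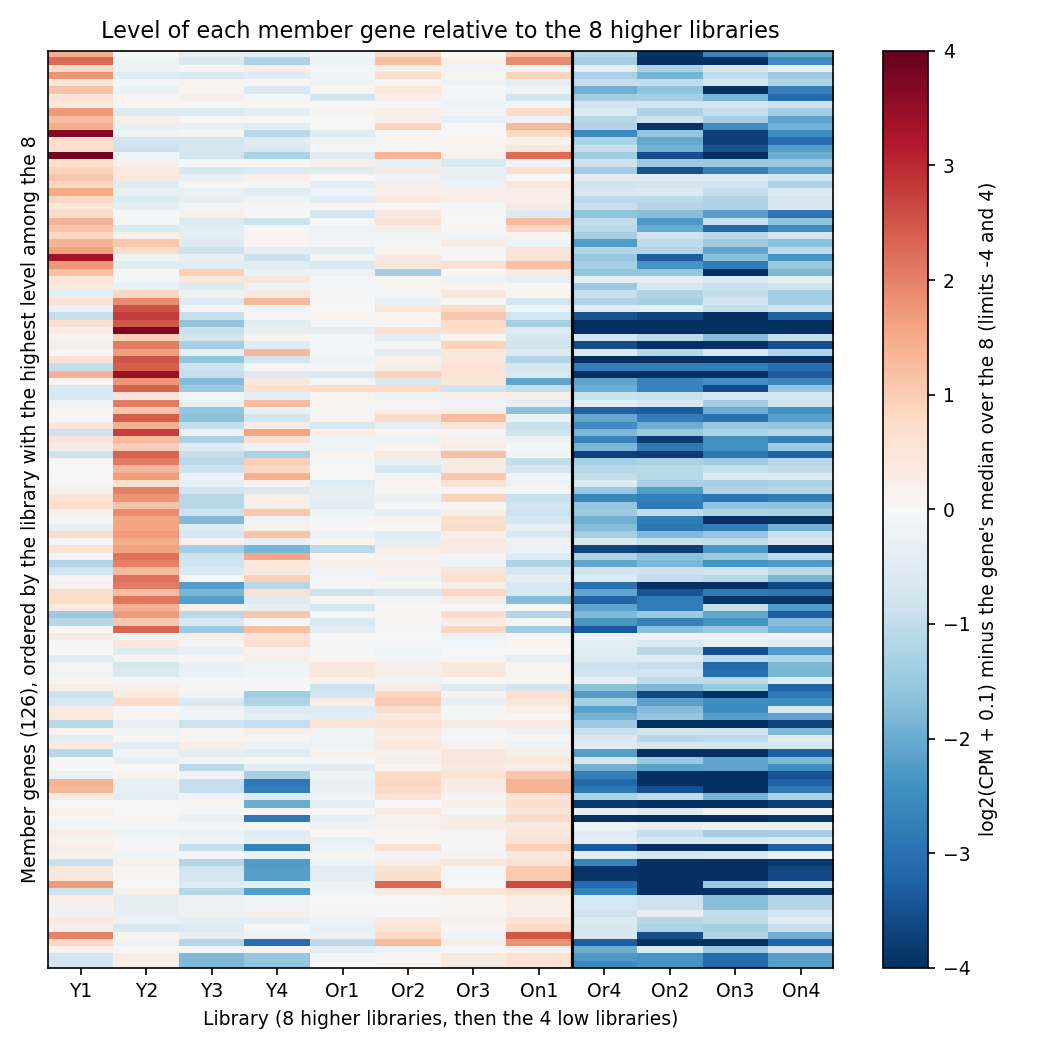
Level of the 126 members (rows) in each library (columns, the 8 higher libraries before the line and the 4 low ones after it) as log2(CPM + 0.1) minus the gene's median over the 8, with colours limited to -4 and 4. Rows are ordered by the library with the highest level among the 8: 47 members peak in young replicate 2, 33 in young replicate 1 and 27 in old non-reproducing replicate 1.

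Old reproducing replicates 1 to 3 against young were compared with edgeR, because all of these libraries lie in the set of 8. The rule left their order free apart from its exclusions. The first removed 2 genes with all young libraries above all old. The second removed 42 genes led by young replicates 2 and 4 with old reproducing replicates 1 and 3. The comparison is therefore not wholly free of the rule. All 126 members passed the filter on low counts. None was called at an adjusted p under 0.05 in either direction, where 2.28% of the 11505 genes tested were called, and 0.0435% were called lower in old reproducing females. Unadjusted p-values under 0.05 were found in 2 members (1.59%), both lower in old reproducing females, where 11% of all genes tested passed and 2.86% passed and were lower. DESeq2 also called 0 of the 104 members to which it gave an adjusted p, with 3.78% of all genes called and 0.567% called lower. The fitted change was below 0 in 89 members (70.6%), beside 55.6% of all genes tested. Its median was -0.31 in the members, beside a median of -0.05 over all genes tested. Leaving out young replicate 1 moved the members' median to -0.07, and leaving out young replicate 2 moved it to -0.10. All 4 young libraries lay below old reproducing replicates 1 to 3 in 4 members (3.17%), against 11.4% of genes of at least 1 CPM. They lay above them in 0 members, against 1.24% of genes of at least 1 CPM. The first exclusion removes that order where old non-reproducing replicate 1 is also below the young. A p that misses the threshold does not show that the levels were alike.

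**Figure D5:**
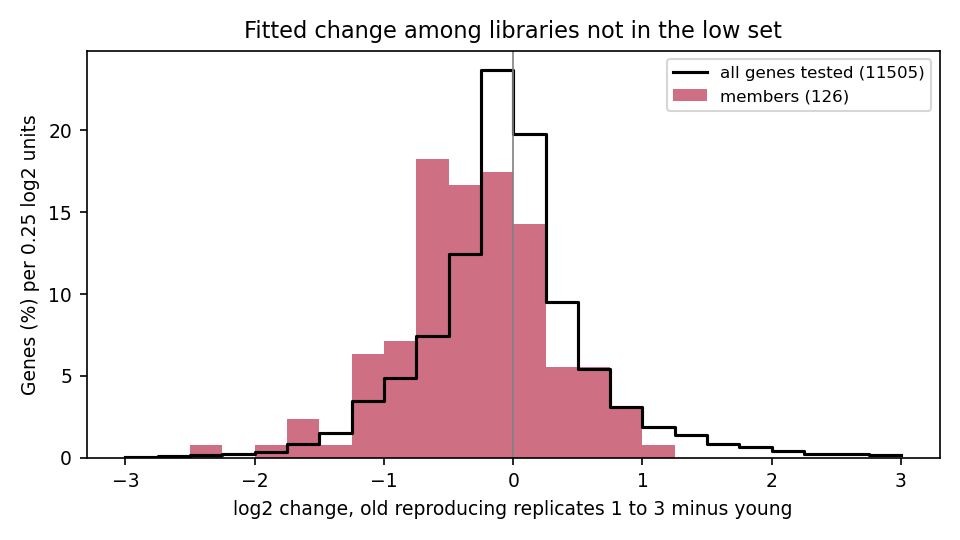
Percentage of genes by fitted log2 change of old reproducing replicates 1 to 3 minus young, in steps of 0.25, for the 126 members (bars) and all 11505 genes tested (line). The members' median is -0.31 and that of all genes -0.05, with wide overlap.

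The comparisons of the labelled groups contain the low libraries, so the counts below follow in part from the rule and are given as a description. Against young, old reproducing females had 0 members called by edgeR, beside 2.88% of all genes tested called and 0.0728% called lower. With an unadjusted p under 0.05 were 13 members (10.3%), all lower, beside 13.2% of all genes in either direction and 4.27% lower. DESeq2 called 1 of 115 members, lower, beside 4.18% of all genes called in either direction and 0.535% called lower. The median log2 change of the members was -0.56, beside -0.03 over all genes tested. It was -0.29 without young replicate 1, -0.27 without young replicate 2 and -0.31 without old reproducing replicate 4.

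Against young, old non-reproducing females had 23 members called lower by edgeR and 0 higher, beside 4.26% of all genes called lower. Their log2 changes ran from -4.42 to -0.81, with a median of -2.08 and adjusted p from 0.0165 to 0.0473. Of these 23 genes, 16 averaged under 10 CPM and 16 were highest in young replicate 2. The call of lowest adjusted p was a model on contig 000001F that had 54.0, 134, 24.6 and 87.8 CPM in young, 36.3, 30.1, 35.4 and 15.5 CPM in old reproducing and 20.97, 14.1, 20.4 and 13.98 CPM in old non-reproducing replicates 1 to 4. Its log2 change was -2.08 (SE 0.45) and the young and old non-reproducing libraries did not overlap.

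The count of 23 changed with single libraries. It was 59 without old non-reproducing replicate 1, beside 2.26% of all genes then called lower, and 17 of the 23 were among the 59. It was 2, 3 and 0 without old non-reproducing replicates 2, 3 and 4, where 0.768, 1.28 and 0.366% of all genes were called lower. It was 4 and 6 without young replicates 2 and 4, where 0.564 and 0.73% of all genes were called lower. It was 12, 12 and 14 without old reproducing replicates 1, 2 and 3, where 1.82, 1.89 and 2.31% of all genes were called lower. In each of these fits the share of all genes called lower was below the 4.26% of the fit on 12 libraries. That share was higher in the fits without young replicate 1, young replicate 3 and old reproducing replicate 4, at 7.66, 10.1 and 4.89%. The members called there were 19, 34 and 31. DESeq2 called 52 of the 115 members to which it gave an adjusted p, all lower, beside 10.1% of all genes called lower.

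Between the old groups edgeR called 0 members, beside 0% of all genes tested. At an unadjusted p under 0.05 there were 13 members, all lower in old non-reproducing females, beside 8.06% of all genes in either direction and 2.95% lower. DESeq2 called 1 of 115 members, lower, beside 2.82% of all genes called in either direction and 0.302% called lower. Without old non-reproducing replicate 1, 7 members were called lower by edgeR, beside 0.48% of all genes called lower, with log2 changes from -5.01 to -1.70. Those 7 were among the 59 called against young without that library, and 0 of them were among the 23 called with all libraries. They included the abundant models on contigs 000018F and 000001F whose highest library was an old reproducing one.

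Old non-reproducing replicate 1 also differed from the old reproducing libraries of the set of 8. It was above old reproducing replicates 1 to 3 in 51 members (40.5%) and below them in 47 (37.3%), against 32.1 and 23.6% of all genes of at least 1 CPM. Its level lay within the range of those 3 libraries in the remaining members. The 42 genes left out by the second exclusion all had this library below old reproducing replicates 1 and 3. The members' percentages follow in part from that.

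The members were spread over 34 of the 156 contigs that hold a gene of at least 1 CPM. Their lengths, recovered from the ratio of CPM to RPKM, had a median of 2436 nucleotides, beside 2361 for all genes of at least 1 CPM. Their mean level had a median of 11.1 CPM, beside 16.3 CPM, and was over 100 CPM in 28 members. Models of the maker-augustus kind, as the ID prefix gives it, made up 53.2% of the members and 53.6% of the genes at that level. For maker-snap these shares were 23.8 and 22.9%, for augustus-masked 7.14 and 8.42%, for genemark 7.94 and 10.1%, and for snap-masked 7.94 and 5.01%. Median length and the maker shares were close to those of all these genes. The genemark and snap-masked shares differed more.

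Groups of neighbouring models were found among the members. The number before the point in an ID, which marks a stretch of the contig in names given by the MAKER annotation tool, was shared with another member of the same contig by 52 members, in 22 places. No matching count was made for other genes, so the 52 is a description and does not by itself show clustering. In 4 places 4 members shared the number. These 4 places held 4 of 11 genes of at least 1 CPM at number 3 of contig 000036F, 4 of 6 at number 16 of contig 000026F, 4 of 11 at number 0 of contig 000035F and 4 of 17 at number 15 of contig 000021F. Neighbouring models can share reads where they overlap. In 3 pairs of members, among them a pair on contig 000026F with 34.9 and 34.8 CPM on average, counts differed by at most 10% plus 1 count in all 12 libraries, so each such pair may be 1 transcript counted at both models.

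The group on contig 000036F was scarce and nearly absent from the low libraries. Summed over its 4 models, the level was 31.3, 118, 7.21 and 13.9 CPM in young, 18.0, 23.4, 33.1 and 0.624 CPM in old reproducing and 9.69, 0.057, 0.371 and 0.832 CPM in old non-reproducing replicates 1 to 4. All 4 models peaked in young replicate 2. The group on contig 000026F had 359, 341, 231 and 52.8 CPM in young, 262, 425, 352 and 17.7 CPM in old reproducing and 595, 4.56, 0.371 and 24.7 CPM in old non-reproducing replicates 1 to 4. There old non-reproducing replicate 1 was highest and young replicate 4 the lowest of the 8. The sum for contig 000026F includes the pair of models with nearly the same counts, so it may count some reads at both.

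The group on contig 000035F had 3229, 1194, 926 and 859.7 CPM in young, 1103, 2029, 1169.9 and 534 CPM in old reproducing and 2666, 78.5, 189 and 297 CPM in old non-reproducing replicates 1 to 4, most of it from the abundant model given above. The group on contig 000021F was mixed. A model of 816 nucleotides there had 43.5 CPM in young replicate 2 and 1.63 to 5.07 CPM in the other 7 libraries of the set of 8. It had 0 or 1 counts in each of the low libraries, so its median level in the 8 was at least 20.7 times the level that 3 counts per low library would give.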

How the data were processed

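Counts of reads per gene model were deposited by the authors as a table, unnormalised per the file headers, with a second deposited table of RPKM values. STAR and SAMtools are named in the submitters' processing notes; their versions and roles, the counting program, the genome build, the annotation and the strand setting of the counting (the library kit is directional, per the labels' protocols) are not given in the sources used here. Recomputed RPKM matched the deposited values to within 1.26e-06 percent. Columns were matched to libraries by the library number. Within groups all 18 pairs of libraries differed by more than sampling noise (chi-square per degree of freedom at least 83.4). Per library there were 16015869 to 25659597 counts.

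CPM for membership used column totals. Tests used edgeR 4.0.16 in R 4.3.3: filterByExpr with the 3 groups, TMM, robust quasi-likelihood fit, 1 mean per group and no covariate, on all 12 libraries or, for old reproducing replicates 1 to 3 against young, on 11. P-values are two-sided, adjusted by Benjamini-Hochberg over all genes tested, and called under 0.05. Standard errors are the absolute log2 change over the square root of F. The fit was tested on simulated counts with a single spread for all genes and no outlying library. That does not test it on data where single libraries stand apart, as here. Alternatives were DESeq2 1.42.0, its size factors, no filter, a replicate block and leaving out each library.

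The members and lists were chosen with earlier results of these data known. Genes were described by rule: the 9 largest gaps at a mean of at least 10 CPM, the next 5 by mean CPM after the highest, the 3 highest RPKM, any called in old reproducing replicates 1 to 3 against young, and the edges of the rule. Beyond that rule, the contig groups, the call of lowest adjusted p and a model on contig 000021F were chosen after their values were seen. Lists by product name were not run, since no ID has a name.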

Additional observations from a re-analysis of the deposited data

Results flagged for a closer look

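Values of the members' share of counts, the members' median CPM and the 14 genes described by rule were compared within each group of 4 libraries, by the gap of the highest or lowest library to its neighbour over the group's range. Of 48 groups of values, 18 had a library past the 95% limit. Independent values would give about 1 in 20, or 2.4. The genes were chosen by the rule and some share nearly the same counts, so the 18 cannot be read against the 2.4. The rule that chose the members puts old non-reproducing replicate 1 with the higher libraries and the other 3 of its group with the low ones, so flags of that library follow from the choice of genes.

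Old non-reproducing replicate 1 stood apart in 14 values. It had 2.81% of its counts in the members, against 0.338 to 0.391% in the other 3, and a median member level of 15.9 CPM, against 1.69 to 3.57 CPM. Its level was 5839 CPM in the most abundant member and 10.2 CPM in maker-000031F-augustus-gene-2.73. Among the abundant members it was 2320.4 CPM in the model on contig 000035F, 2213 CPM in one on contig 000001F, 2621 CPM in that on contig 000005F, 2485 CPM in that on contig 000016F and 1498 CPM in that on contig 000018F. Among the genes with large gaps it was 432 CPM in the model on contig 000004F, 86.3 CPM in one on contig 000002F, and 298, 99.3 and 99.4 CPM in 3 models on contig 000026F.

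Young libraries stood apart in 4 values, which the rule does not fix. Young replicate 1 had 2842 CPM of the model on contig 000035F, against 751 to 1055 CPM in the other young libraries, and 3177 CPM of that on contig 000016F, against 285 to 586 CPM. Young replicate 2 had 118 CPM of maker-000031F-augustus-gene-2.73, against 8.81 to 16.1 CPM. Young replicate 4 had 68.1 CPM of the model on contig 000004F, against 269.5 to 280.3 CPM.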

How the results depend on the processing

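In old reproducing replicates 1 to 3 against young the number of members called was 0 in all 15 alternatives. In old reproducing against young it was 0 except with DESeq2 (1) and, over the fits that left out 1 library, ranged from 0 to 1. In old non-reproducing against young it was 23, against 52 with DESeq2, 13 with no filter on low counts and 8 with the replicate block, and from 0 to 59 with 1 library left out. Of all genes, 4.26% were called lower, against 10.1% with DESeq2, 0.983% with no filter, 0.437% with the replicate block and 0.366 to 10.1% with 1 library left out. Between the old groups it was 0, against 1 with DESeq2 and 0 to 7 with 1 library left out. The cause of these shifts was not tested. The replicate numbers did not pair the libraries: deviations of same-numbered libraries from their group means correlated at -0.47 to 0.36, over 0.1 in 3 of 12 pairs, and 0 libraries matched best with their own number. The number of members was 126 by the rule, 174 with no minimum level, 74 at a minimum of 5 CPM, 70 and 36 with gaps of at least 1.2 and 1.5 times, and 115 to 242 with 1 library left out, the highest without old reproducing replicate 4. With TMM-scaled CPM it was 136, of which 104 were among the 126. In maker-000031F-augustus-gene-4.17 the change of old reproducing against young turned to -0.14 without old reproducing replicate 2 and -0.02 without young replicate 4 (range with 1 library left out -0.14 to 0.62). In maker-000031F-augustus-gene-2.73, leaving out young replicate 2 turned it to 0.58 (range -1.58 to 0.58), and to 0.97 for old reproducing replicates 1 to 3 (range -1.05 to 0.97). Depth limits members under 2 CPM, of which there were 27.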
